A study of Arabidopsis thaliana with 20 samples.

Results

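UDP-glycosyltransferases of plants move a sugar, most often glucose, from a UDP-sugar onto a small acceptor molecule. The acceptors include flavonoids, lignin precursors, phenolic acids, glucosinolate precursors, several hormones and foreign compounds, and the added sugar usually makes them more soluble and ready for storage in the vacuole. Family members carry systematic UGT names in which the number gives the family and the letter the subfamily, and many lie side by side on the chromosomes as tandem copies. The members followed here were all genes that have a probe set with a single gene symbol made of UGT and a digit. There were 47 such genes, of 13350 that were measured by a probe set with exactly 1 gene symbol. Each had a single such probe set, out of 22810 on the array, so that no choice between probe sets was needed. A further 3 UGT probe sets are assigned to more than 1 gene (UGT73B2 with UGT73B3, UGT71D1 with a neighbouring locus, and UGT89B1 with a neighbouring locus) and were left out. All 47 members matched a locus in the RefSeq gene table of Arabidopsis thaliana, which holds 58 genes with UGT symbols.

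The 20 arrays came from plants of the Columbia background that were wild type or lacked members of the MYB3R family, transcription factors of the cell division cycle. First leaf pairs were collected at 15 d from the myb3r1 myb3r3 myb3r5 triple mutant (3 arrays) and from wild type (3 arrays), and at 5 d from the same triple mutant (2 arrays) and from wild type (2 arrays). Whole seedlings of 9 d were measured with 1 array each for the single mutants myb3r1, myb3r3, myb3r4 and myb3r5, the double mutants myb3r1 myb3r4 and myb3r3 myb3r5, the triple mutants myb3r1 myb3r3 myb3r5 and myb3r3 myb3r4 myb3r5, the quadruple mutant myb3r1 myb3r3 myb3r4 myb3r5, and wild type. All plants grew in continuous light on agar medium that contained sucrose, so every group shares that sugar supply. The nature of the mutant alleles and the number of plants per sample are not given in the sources used here, and no probe set was matched here to the 4 mutated genes, so the genotype labels were not checked against them.

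Values are array signals on a linear scale after each array was set to the same trimmed mean, and signals under 33.1, the median over arrays of the 25th percentile, were treated as lying at a floor. Signals of different probe sets are not comparable as levels, so each gene is compared only with itself. A member was tested in leaves where all arrays of some leaf group exceeded the floor, and a change was called at a limma adjusted p under 0.05 over all 16558 probe sets tested. That left 36 members tested and 11 not tested: UGT71B8, UGT71C1, UGT71C2, UGT72E3, UGT73C2, UGT73C7, UGT76E1, UGT76E2, UGT78D3, UGT84B1 and UGT84B2. Of these 11, UGT76E1, UGT78D3, UGT84B1 and UGT84B2 were at the floor on all 20 arrays, and UGT72E3 was at the floor on all 10 leaf arrays. Among the 36 tested, 24 were above the floor throughout a group of each age. Another 9 (UGT71B5, UGT71B6, UGT73B4, UGT73B5, UGT73C1, UGT73D1, UGT76B1, UGT76D1 and UGT76E12) passed only through a 15 d group, and 3 (UGT71C3, UGT84A1 and UGT84A4) only through a 5 d group. For those 12 members the filter itself favours a difference with age.

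The labelled tissue was checked with marker genes. The summed signal of the 6 named photosynthesis markers was 73554, 9575 and 13324 in 15 d triple mutant leaves, against 92853, 56476 and 40598 in 15 d wild-type leaves, so that the mutant arrays numbered 2 and 3 were low. It was 57292 to 64486 in 5 d mutant leaves and 39258 to 50577 in 5 d wild-type leaves. The 2 named root markers were at the floor on every 15 d leaf array. Their summed signal was 78.95 and 91.98 in 5 d mutant leaves and 56.24 and 49.55 in 5 d wild-type leaves, and 241.4 to 389.3 in seedlings, which include roots. The sum of 7 markers of dividing cells was 2155 to 2295 in 15 d mutant leaves, 131.7 to 354.1 in 15 d wild-type leaves, and 7924 to 10812 over the 5 d arrays. At 15 d, limma called 5 of these 7 higher in the mutant. AUR3 (log2 difference -0.17, adjusted p = 0.945) and 3xHMG-box2 (1.20, adjusted p = 0.5) were not called. MYB3R factors act in the cell division cycle, so in the mutant these markers are no separate check of the tissue. In such mixed tissue, fewer cells of a type and less RNA per cell cannot be told apart. The arrays with the same number at 15 d deviated together, as described with the mutant comparison.

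Leaf age was the factor with which these genes differed most often. Between 5 d and 15 d, 18 of the 36 tested members rose and 5 fell in triple mutant leaves, and 15 rose and 3 fell in wild-type leaves. The corresponding shares of members were 50% and 13.9% in the mutant, beside 25.9% and 27.1% of all probe sets tested, and 41.7% and 8.33% in wild type, beside 24.9% and 27.3%. Calls in either direction made up 52.9% of all probe sets in the mutant and 52.2% in wild type. The median log2 change over the members tested was 1.12 in mutant and 0.86 in wild-type leaves, while the median over all probe sets was -0.05 and -0.01 in the same comparisons. Over the 24 members above the floor in a group of each age, 11 rose and 3 fell in the mutant (45.8% and 12.5%, beside 24% and 26.9% of the 13655 probe sets of that kind), and 10 rose and 2 fell in wild type (41.7% and 8.33%, beside 23.7% and 27.2%). At an unadjusted p under 0.05, 27 members passed in the mutant (75%, beside 58.8% of all probe sets) and 20 in wild type (55.6%, beside 58%). Across both genotypes, which were fitted together, 14 members rose in each (38.9%, beside 20.8% of all probe sets) and 2 fell in each (5.56%, beside 22.3%). A further 11 were called in neither (30.6%, beside 38%), and none was called in opposite directions (0%, beside 0.0302%). The shared rises include UGT73B4, UGT73B5, UGT73C1, UGT76D1 and UGT76E12, which passed the filter only through a 15 d group. The shared falls include UGT71C3, which passed only through a 5 d group. Unadjusted and shared counts were not restricted to the 24 members above. Over those 24, the median log2 change was 1.02 in the mutant and 0.85 in wild type, beside -0.08 and -0.06.

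**Figure D1:**
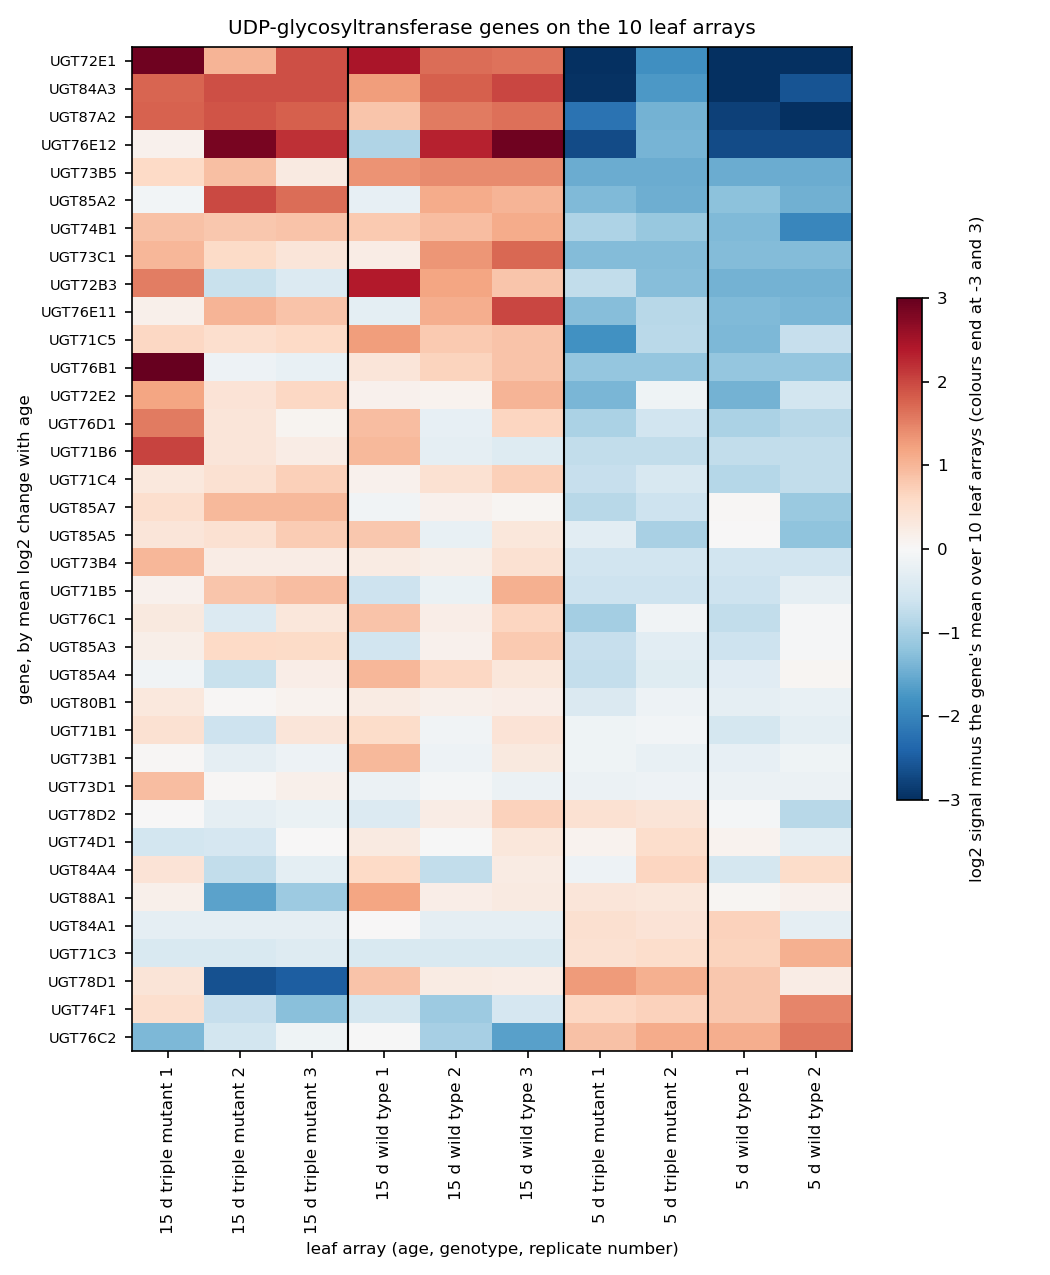
Log2 signal of the 36 tested members (rows) on the 10 leaf arrays (columns), as the difference from each gene's own mean, red for higher and blue for lower. Most rows are red at 15 d and blue at 5 d, and UGT78D1, UGT88A1 and UGT76B1 differ between the 15 d mutant array numbered 1 and those numbered 2 and 3.

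Among the highest fitted rises were those of 2 enzymes that act on phenylpropanoids, the compounds from which lignin and soluble hydroxycinnamate esters are made. Rises against 5 d arrays under the floor are lower bounds, so the order of the highest rises is not known. UGT72E1, which glucosylates lignin precursors, had signals of 2609, 702.2 and 1330 in 15 d mutant leaves, against 42.3 and 96.5 in 5 d mutant leaves. In wild type it had 1884, 1097 and 1069 at 15 d, against 13.6, which is under the floor, and 33.9 at 5 d. Every 15 d array lay far above every 5 d array, and the log2 change was 4.40 (SE 0.55, adjusted p = 2.58e-04) in the mutant and 5.28 (SE 0.55, adjusted p = 7.94e-05) in wild type. UGT84A3, which makes glucose esters of hydroxycinnamic acids, had 1294, 1472 and 1488 in 15 d mutant leaves, against 49.9 and 117.6 at 5 d. Its wild-type signals were 917.9, 1351 and 1557 at 15 d, against 36.2 and 64.6 at 5 d. The change of UGT84A3 was 4.21 (SE 0.41, adjusted p = 7.89e-05) in the mutant and 4.69 (SE 0.41, adjusted p = 3.01e-05) in wild type, and again no 15 d array overlapped a 5 d array.

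The other members of this substrate group were less uniform. UGT72E2, a second enzyme of lignin precursor glucosylation, rose by 1.48 (adjusted p = 0.0274) in the mutant and 1.41 (adjusted p = 0.0334) in wild type on the log2 scale. UGT84A1, another hydroxycinnamate glucosyltransferase, averaged 7.85 ± 5.18 in 15 d mutant leaves, all arrays under the floor, and 54.2 ± 2.14 in 5 d mutant leaves (SD, n = 3 and 2). Its fall of at least 1.64-fold in the mutant was called narrowly (adjusted p = 0.0481), and in wild type the log2 change was -0.39 (adjusted p = 0.251). UGT84A4 had a log2 change of -0.45 in the mutant and 0.02 in wild type, and neither was called. UGT72E3 was not tested. Thus 3 of the 5 tested members of the group rose in each genotype, and 1 fell in the mutant.

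UGT87A2, known from mutants with altered flowering time, had 5568, 6023 and 5610 in 15 d mutant leaves, against 348.3 and 611.7 at 5 d. Wild-type leaves had 2907, 4752 and 5132 at 15 d, against 234.3 and 194.3 at 5 d. This amounts to 12.4-fold in mutant leaves (adjusted p = 4.46e-05, a log2 change of 3.63 with an SE of 0.31) and 19.4-fold in wild-type leaves (adjusted p = 1.34e-05, a log2 change of 4.28 with the same SE), the lowest adjusted p of the family in each genotype. UGT74B1, which adds the sulphur-linked glucose in glucosinolate synthesis, had replicates that lay close together at 15 d. It averaged 2081 ± 44.5 in 15 d mutant leaves and 561.5 ± 58.3 in 5 d mutant leaves, and 2221 ± 253.3 in 15 d wild-type leaves and 377.4 ± 112.6 in 5 d wild-type leaves (SD, n = 3 and 2). Its log2 change was 1.89 in the mutant and 2.58 in wild type (SE 0.22, adjusted p = 1.76e-04 and 2.73e-05 in that order of genotypes).

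**Figure D2:**
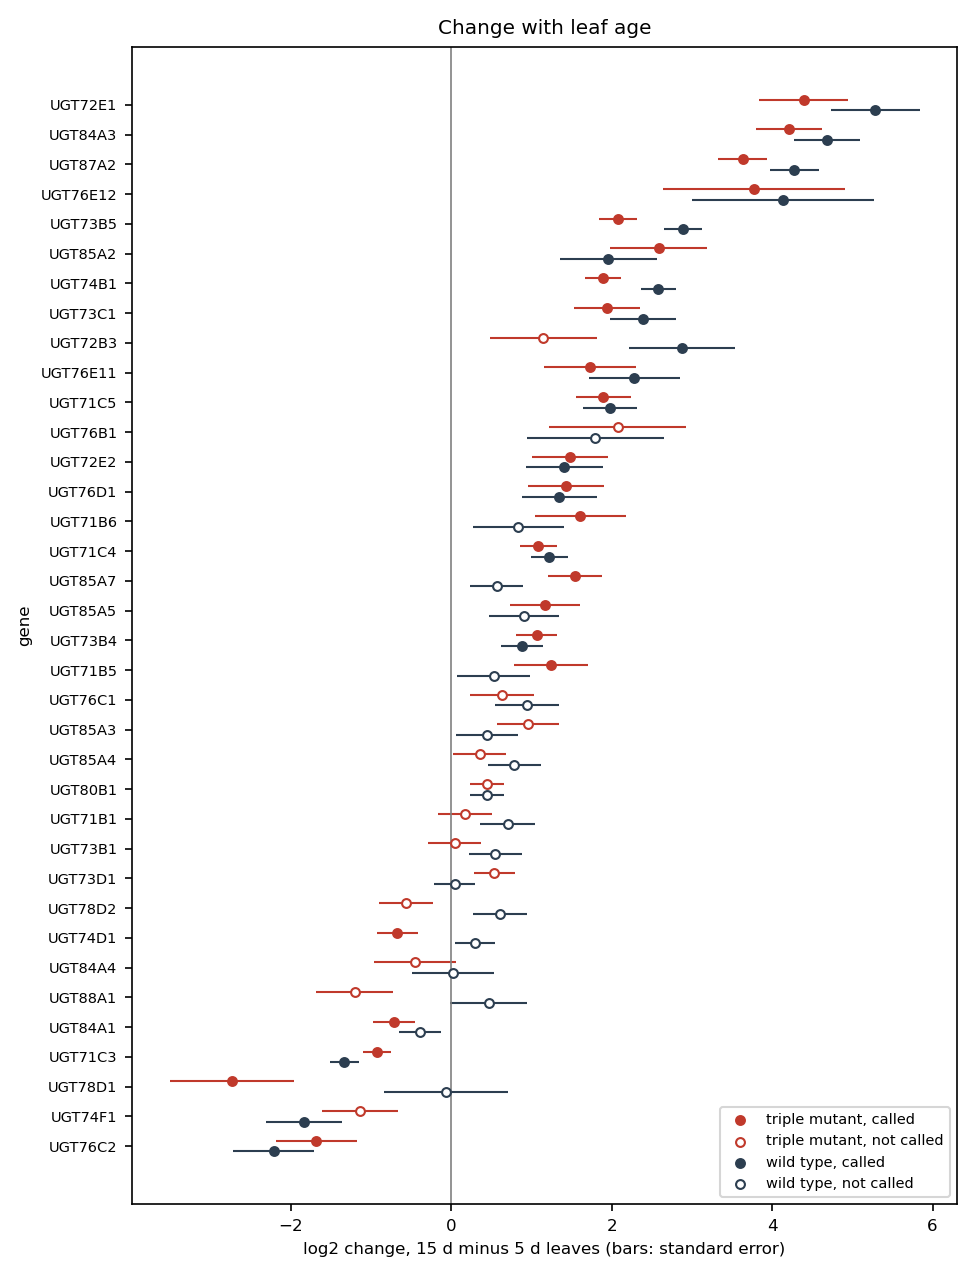
Log2 change between 15 d and 5 d leaves for each tested member, in triple mutant (red) and wild-type leaves (dark blue), with standard errors. Filled points are called changes; UGT72E1 and UGT84A3 stand at the top with fitted changes above 4 in both genotypes, and UGT76C2 stands at the bottom.

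Of 3 tested members linked to defence or to the conjugation of foreign compounds, UGT73B5 and UGT73B4 rose in both genotypes, and were under the floor on every 5 d array. UGT73B5, a gene of pathogen responses, had 141.7, 173.3 and 111.9 in 15 d mutant leaves and 237.3, 246.6 and 249.7 in 15 d wild-type leaves, and its rise was at least 4.23-fold in the mutant (adjusted p = 1.55e-04) and at least 7.39-fold in wild type (adjusted p = 2.29e-05). Its neighbour UGT73B4, which can conjugate the explosive TNT, rose by at least 2.09-fold in the mutant (adjusted p = 0.00786) and at least 1.84-fold in wild type (adjusted p = 0.0188). UGT73B1 was not called in either genotype, with log2 changes of 0.04 in the mutant and 0.55 in wild type. UGT73C1, which shares the activity towards TNT, rose by at least 3.85-fold in the mutant (adjusted p = 0.00362) and at least 5.24-fold in wild type (adjusted p = 0.0011).

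UGT76E12, a member whose 15 d signal varied widely, had 233.2, 1542 and 980.4 in 15 d mutant leaves and 114.1, 1053 and 1622 in 15 d wild-type leaves. At 5 d the mutant arrays read 80.95 on the array numbered 2 and under the floor on the other, and both wild-type arrays were under the floor. In each genotype the array numbered 1 was the lowest at 15 d. The log2 change was 3.77 (SE 1.13, adjusted p = 0.0204) in the mutant and, against a group wholly at the floor, at least 17.5-fold (adjusted p = 0.0133) in wild type. UGT85A2 had 914.5, 3878 and 3096 in 15 d mutant leaves, against 390.7 and 351 at 5 d, and 824.2, 2104 and 1984 in 15 d wild-type leaves, against 415.8 and 362.1 at 5 d. Here too the 15 d arrays numbered 1 were lowest, and the change was 2.59 in the mutant (SE 0.61, adjusted p = 0.00641) and 1.96 in wild type (SE 0.61, adjusted p = 0.0232). UGT76E11, a flavonoid glucosyltransferase in vitro, rose by 1.73 in the mutant (adjusted p = 0.0304) and 2.28 in wild type (adjusted p = 0.00853).

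Hormone-conjugating members moved in both directions. UGT71C5, which forms the glucose ester of abscisic acid, averaged 438.3 ± 17.9 in 15 d mutant leaves and 125.3 ± 60.0 in 5 d mutant leaves, and rose by 1.89 (SE 0.34, adjusted p = 0.00163). In wild type it averaged 576.4 ± 101.4 at 15 d and 148.6 ± 46.8 at 5 d (SD, n = 3 and 2 in each genotype), and rose by 1.98 (SE 0.34, adjusted p = 0.00118). UGT71B6, a second abscisic acid glucosyltransferase, was under the floor on all 5 d arrays and rose by at least 3.05-fold in the mutant (adjusted p = 0.0396), and in wild type its log2 change was 0.84 (adjusted p = 0.247). UGT76C2, which attaches glucose to the ring nitrogen of cytokinins, went the other way. It had 62.7, 108.4 and 147.4 in 15 d mutant leaves, against 296.5 and 347.9 at 5 d, and 159.1, 80.1 and 51.6 in 15 d wild-type leaves, against 342.1 and 476.4 at 5 d. All 15 d arrays lay below all 5 d arrays, and UGT76C2 fell by 1.68 in the mutant (SE 0.50, adjusted p = 0.0199) and by 2.21 in wild type (SE 0.50, adjusted p = 0.00524) on the log2 scale. Its neighbour UGT76C1, which has the same activity, had log2 changes of 0.63 (adjusted p = 0.205) in the mutant and 0.95 (adjusted p = 0.0719) in wild type. UGT74D1, an auxin glucosyltransferase, fell by 0.67 in the mutant (adjusted p = 0.049), and its log2 change in wild type was 0.30 (adjusted p = 0.35). That narrow mutant call was lost in most fits with an array left out and in most other settings. The other auxin-conjugating members, UGT84B1 and UGT84B2, were at the floor throughout.

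For salicylic acid, UGT74F1 had 111.6, 48.7 and 28.1, the last under the floor, in 15 d mutant leaves, against 120.5 and 127.4 at 5 d. In 15 d wild-type leaves it had 55.0, 36.9 and 55.5, against 137.6 and 217.0 at 5 d, and its fall of 3.58-fold was called in wild type (log2 change -1.84, SE 0.48, adjusted p = 0.01). In the mutant the log2 change was -1.13 (adjusted p = 0.072). UGT76B1, which conjugates salicylic acid and other immune signals, was under the floor on all 5 d arrays and was not called in either genotype. Its log2 change was at least 2.08 in the mutant (SE 0.85, adjusted p = 0.0673) and at least 1.79 in wild type (SE 0.85, adjusted p = 0.107). Its 15 d signals were 644.6, 66.3 and 63.6 in the mutant, where 1 array stood far above the other 2, and 95.9, 117.3 and 134.3 in wild type. UGT71C3, which can glucosylate methyl salicylate, fell by 0.92 on the log2 scale in the mutant (adjusted p = 0.00223) and by at least 2.52-fold in wild type (adjusted p = 2.75e-04), to signals mostly at the floor at 15 d.

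**Figure D3:**
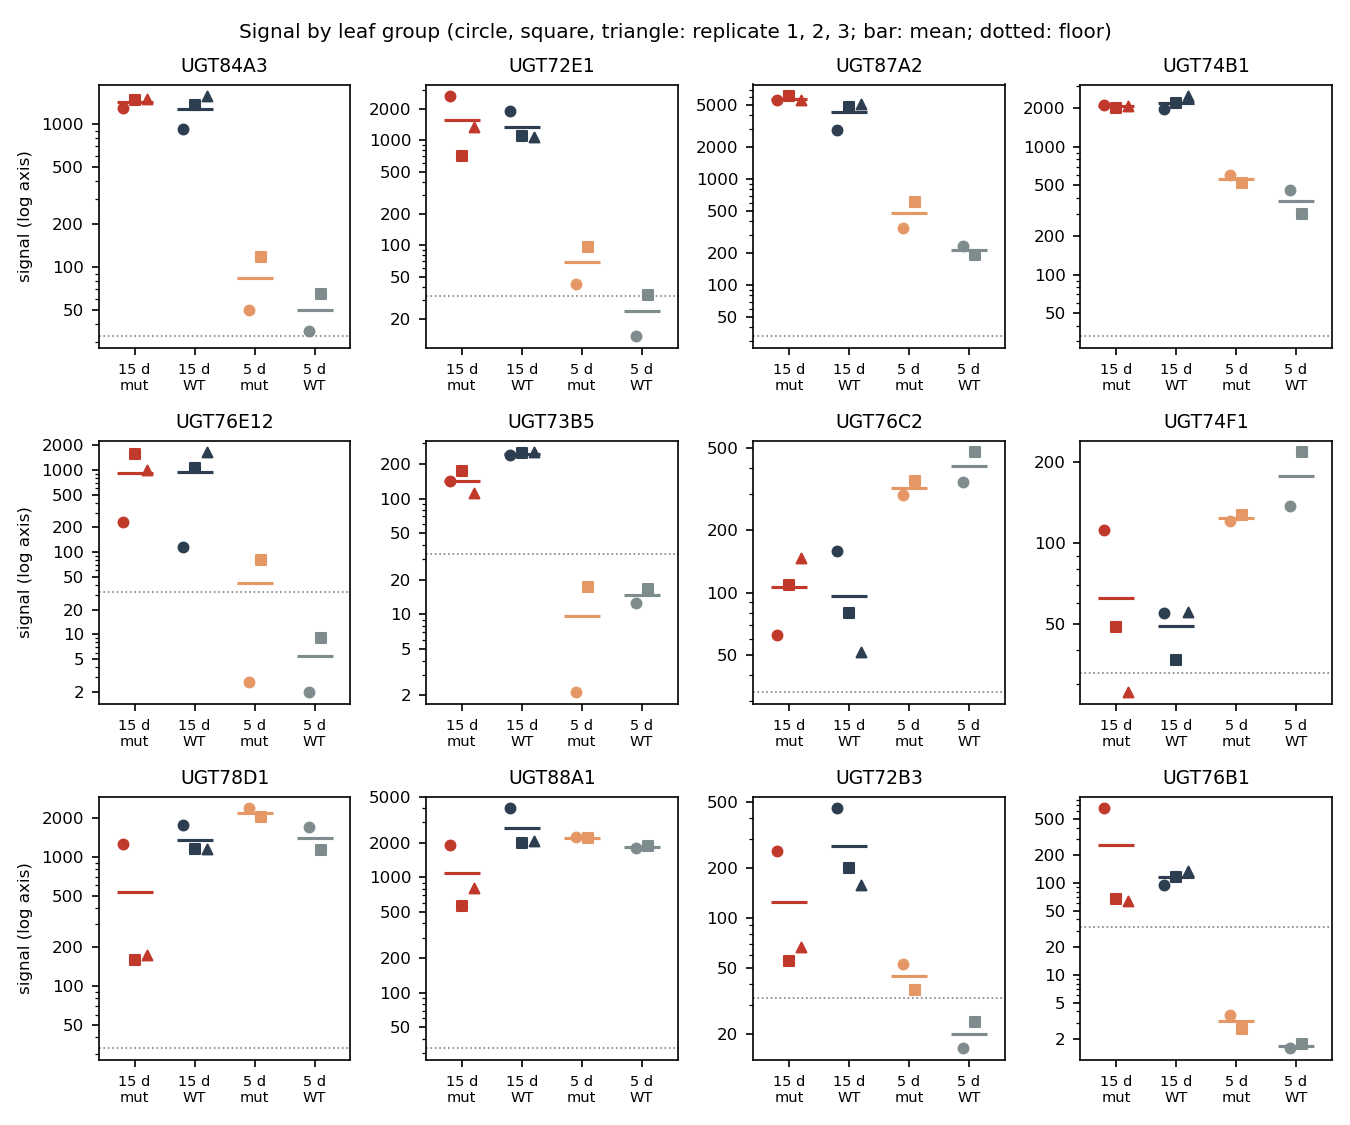
Signal of 12 members on a log axis in the 4 leaf groups, 15 d mutant, 15 d wild type, 5 d mutant and 5 d wild type, with 1 symbol per array, a bar at the group mean and a dotted line at the floor of 33.1. In UGT78D1, UGT88A1, UGT72B3 and UGT76B1 the circle (array numbered 1) stands above the square and the triangle in 15 d mutant leaves.

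Neither tested member of the listed flavonoid group, UGT78D1 and UGT78D2, rose with age, and UGT78D3 was at the floor. UGT78D1, the flavonol rhamnosyltransferase, fell in mutant leaves by 2.74 log2 units (SE 0.77, adjusted p = 0.0157), and its change in wild type was -0.07 (adjusted p = 0.953). UGT78D2, the flavonoid glucosyltransferase that also acts on anthocyanins, had changes of -0.57 (adjusted p = 0.182) in the mutant and 0.61 (adjusted p = 0.159) in wild type. The difference between the genotypes in the age change of UGT78D1 was not called, with a log2 difference of -2.67 (95% interval -5.15 to -0.19, adjusted p = 0.635). UGT80B1, a sterol glucosyltransferase, was not called in either genotype, with changes of 0.45 in both. UGT72B3, a relative of the xenobiotic-conjugating UGT72B1, had 253.7, 55.4 and 66.4 in 15 d mutant leaves, against 52.9 and 36.7 at 5 d, and was not called (log2 change 1.15, adjusted p = 0.173). In wild type it had 456.9, 200.1 and 157.6 at 15 d, against 5 d arrays under the floor, and rose by at least 7.35-fold (adjusted p = 0.00561).

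Tandem neighbours did not share 1 pattern. The members formed 10 runs of adjacent genes in the RefSeq gene order, with 24 members in all. In the run UGT71C5, UGT71C4 and UGT71C3, the first and the second rose in both genotypes (UGT71C4 by 1.09 in the mutant and 1.22 in wild type, adjusted p = 0.00398 and 0.00201 in that order) and the third fell in both. In the run UGT84A1, UGT84A3 and UGT84A4, the middle gene had the rise of more than 4 described above, and neither flanking gene rose. In the run UGT85A7, UGT85A2, UGT85A5 and UGT85A3, the second rose in both genotypes. UGT85A7 (1.54, adjusted p = 0.00417) and UGT85A5 (1.17, adjusted p = 0.0469) rose in the mutant and were not called in wild type, and UGT85A3 was called in neither. The pair UGT76C2 and UGT76C1 had a called fall beside a change that was not called, and the pair UGT73B5 and UGT73B4 rose together. Whether near-identical neighbours cross-hybridised was not tested.

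The age calls varied in how firmly they stood. Across leaving out each array in turn and the other settings in which the gene was tested, 8 calls stayed in the mutant (UGT71C4, UGT71C5, UGT72E1, UGT73B4, UGT73B5, UGT74B1, UGT84A3 and UGT87A2), and 8 in wild type (UGT73C1 in place of UGT73B4). Beside leaving out single arrays, UGT73B4 was tested in 8 of 10 settings, UGT73B5 and UGT73C1 in 9, and the others in all 10. UGT73B4, UGT73B5 and UGT73C1 passed the filter only through a 15 d group, so the filter favours their rises. The other members listed were above the floor throughout a group of each age. Without the 5 d mutant array numbered 1, 11 mutant calls were made, beside 35.8% of all probe sets, and without the 5 d mutant array numbered 2 there were 13, beside 40.5%. With no filter there were 14 mutant calls among all 47 members, beside 34.9%. With only probe sets of a mean of at least 4 times the floor, 21 members were tested, of which 14 were called in the mutant, beside 57.4%, and 11 in wild type, beside 56.7%. On the array numbered 2 of the 5 d mutant, 9 of the 15 members that rose in wild type read higher than on the array numbered 1, 3 lower and 3 were at the floor on both. The median log2 difference between those arrays was 0.40 over the 15 members and 0.05 over all probe sets tested.

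The comparison of triple mutant and wild-type leaves asks whether loss of MYB3R1, MYB3R3 and MYB3R5 altered the family at a given age. At 15 d no member was called by limma, beside 0.749% of all probe sets, and 6 members had an unadjusted p under 0.05 (16.7%, beside 8.83% of all probe sets). The lowest adjusted p of a member was 0.224, for UGT73B5. At 5 d no member was called either, beside 0.127%, and 3 had an unadjusted p under 0.05 (8.33%, beside 5.19%). The difference between the effects at the 2 ages was called for no member, beside 0.344%, and 5 had an unadjusted p under 0.05 (13.9%, beside 7.3%). These counts do not show that the genotypes were alike, as the wide intervals of the members below make plain.

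At 15 d the largest differences were falls in the mutant. UGT78D1 had 1264, 158.4 and 175.1 in mutant leaves, against 1755, 1146 and 1137 in wild-type leaves. The mutant array numbered 1 lay within the wild-type range and the other 2 lay far below it. The log2 difference was -2.01 (95% interval -3.58 to -0.44, adjusted p = 0.423). UGT88A1, which acts on the flavonol quercetin in vitro, had 1918, 570.4 and 811.3 in mutant leaves, against 3964, 2005 and 2079 in wild-type leaves. Its groups did not overlap, with the mutant lower in every array, and the difference was -1.41 (95% interval -2.38 to -0.43, adjusted p = 0.337). UGT72B3, with the signals given above, overlapped between the groups through the mutant array numbered 1 and differed by -1.32 (95% interval -2.66 to 0.03, adjusted p = 0.57).

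Whether these differences were called depended on how the arrays were matched, while the fitted log2 differences stayed the same. At 15 d the arrays with the same number deviated together from their group means, with correlations across probe sets of 0.73, 0.60 and 0.57 for numbers 1, 2 and 3, and those with different numbers gave -0.67 to 0.42. With the number as a block, 2 members were called at 15 d, both lower in the mutant, where 2.23% of all probe sets were called lower. They were UGT88A1 (log2 difference -1.41, adjusted p = 0.0148) and UGT72B3 (-1.32, adjusted p = 0.0396), and UGT78D1 reached an adjusted p of 0.0578. Within the numbered pairs the log2 difference of UGT88A1 was -1.05, -1.81 and -1.36, that of UGT72B3 was -0.85, -1.85 and -1.25, and that of UGT78D1 was -0.47, -2.85 and -2.70. All 9 of these within-pair values were negative. The 3 members were named for their large falls on these same arrays, so the shared sign is no separate support.

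The mutant array numbered 1 weighed on the same genes. Without it, 4 members were called at 15 d, all lower in the mutant, where 4.65% of all probe sets were called lower. These were UGT78D1 (-2.98, adjusted p = 7.41e-04), UGT88A1 (-1.91, adjusted p = 0.00934), UGT72B3 (-2.01, adjusted p = 0.0271) and UGT76B1 (-0.82, adjusted p = 0.0445), the last of which stood at 0.28 with all arrays. The difference between the ages was then called for UGT78D1 (-3.65, adjusted p = 0.00512) and UGT88A1 (-2.17, adjusted p = 0.0437), both negative, as were the calls of 2.18% of all probe sets. Without both 15 d arrays numbered 1, 6 members were called, beside 9.24%: UGT78D1, UGT88A1, UGT72B3, UGT73C1 and UGT76B1 lower and UGT85A2 higher in the mutant. The difference between the ages was then called for 3 members, all negative, beside 4.14% of all probe sets called so. Without the 15 d mutant array numbered 1 and the 5 d mutant array numbered 2, UGT88A1 and UGT78D1 were called lower at 15 d, beside 2.2% of all probe sets called lower, and UGT78D1 had a called negative difference between the ages, beside 0.214%. Across the 3 mutant arrays, the signals of UGT78D1, UGT88A1 and UGT72B3 had the same high array as the summed photosynthesis markers, 73554 on the array numbered 1 and 9575 and 13324 on those numbered 2 and 3. The part of that difference in the calls was not tested. Taking both genotypes at 15 d, 8 of 36 members read higher on the 2 arrays numbered 1 than on the other 4 (22.2%, beside 23.7% of all probe sets) and 5 read lower (13.9%, beside 17.8%).

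**Figure D4:**
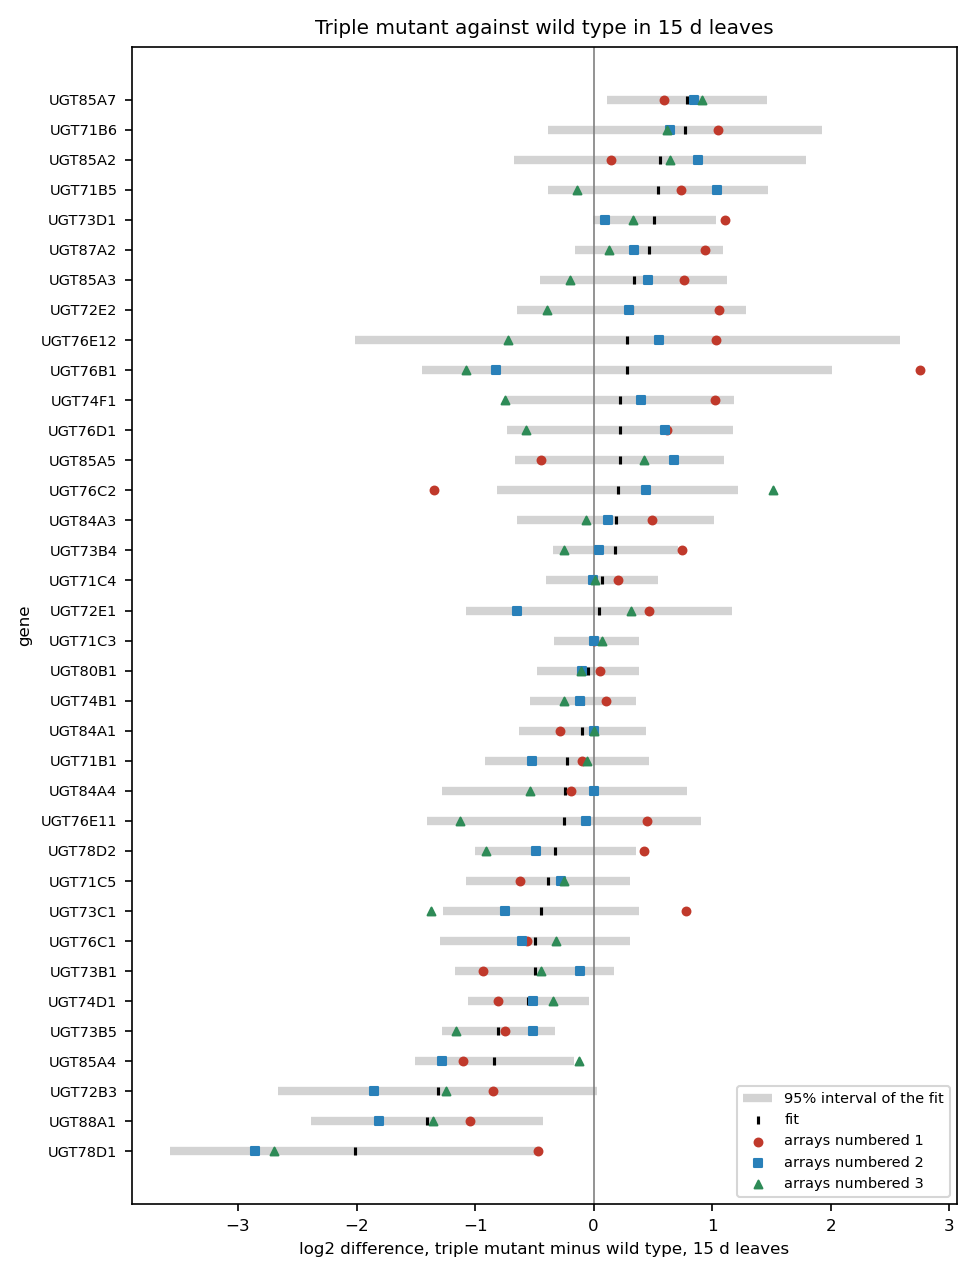
Log2 difference between triple mutant and wild-type leaves at 15 d for each tested member, as the fitted value with its 95% interval (grey) and as the 3 differences between arrays of the same number (coloured symbols). UGT78D1, UGT88A1 and UGT72B3 lie at the bottom, and the array pair numbered 1 of UGT76B1 lies at the far right, opposite to its other pairs.

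Other members had smaller differences at 15 d. UGT73B5 averaged 142.3 ± 30.7 in mutant leaves and 244.5 ± 6.42 in wild-type leaves (SD, n = 3 each), a log2 difference of -0.80 (95% interval -1.28 to -0.33, adjusted p = 0.224). UGT85A4 and UGT71C5 were, like UGT73B5 and UGT88A1, lower in all mutant arrays than in all wild-type arrays, with log2 differences of -0.84 (adjusted p = 0.438) and -0.38 (adjusted p = 0.8). These 4 make 11.1% of the members tested, beside 4.06% of all probe sets. UGT85A7, UGT87A2 and UGT73D1 were higher in all mutant arrays, which is 8.33% of members, beside 5.65%. UGT73D1 passed the filter only through the 15 d mutant group, with signals near the floor, so the filter itself favours its place in this count. UGT85A7 had 100.8, 139.2 and 140.4 in mutant leaves, against 66.7, 77.4 and 74.4 in wild-type leaves, and its difference was 0.79 (95% interval 0.11 to 1.46, adjusted p = 0.481). The next largest positive differences, of UGT71B6 (0.77, adjusted p = 0.739) and UGT85A2 (0.56, adjusted p = 0.857), came with overlapping groups.

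At 5 d the largest difference was that of UGT87A2, with 348.3 and 611.7 in mutant leaves, against 234.3 and 194.3 in wild-type leaves. Both mutant arrays lay above both wild-type arrays, and the log2 difference was 1.11 (95% interval 0.35 to 1.88, adjusted p = 0.534). UGT72E1 differed by 0.93 (adjusted p = 1), and UGT78D2 by 0.85, with 2210 and 2116 in mutant leaves, against 1566 and 915.4 in wild-type leaves (adjusted p = 0.931). The most negative differences were those of UGT74F1 (-0.48), UGT85A4 (-0.40) and UGT71C3 (-0.38), each with an adjusted p of 1. In 10 of 36 members both mutant arrays exceeded both wild-type arrays (27.8%, beside 17.8% of all probe sets), and in 3 both were lower (8.33%, beside 19.1%). The array numbered 2 of the 5 d mutant, described above, takes part in each of these counts.

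The difference between the mutant effects at 15 d and 5 d was most negative for UGT78D1, then UGT72B3 (-1.73, adjusted p = 0.77) and UGT88A1 (-1.67, 95% interval -3.21 to -0.13, adjusted p = 0.63). It was most positive for UGT85A7 (0.98, adjusted p = 0.723), UGT71B6 (0.77, adjusted p = 0.901) and UGT71B5 (0.71, adjusted p = 0.878). UGT71B6 was under the floor on all 5 d arrays, so its value is just its difference at 15 d. UGT71B5 passed the filter only through the 15 d mutant group, so the filter favours a positive value. None of the differences named here was called with all arrays.

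Whole seedlings of 9 d give the family in a mixed tissue that includes roots. Leaves and seedlings were compared as sets of arrays, with no test, for the 42 members that passed the filter in leaves or exceeded the floor on a seedling array. A member could thus enter through the tissue in which it was high. UGT71C1 entered only through seedlings and UGT73C1 only through 15 d leaves, so the filter favours their places in the counts below. All 10 seedling arrays lay above all 10 leaf arrays for UGT71C1, UGT72E2 and UGT84A4 (7.14% of members, beside 4.07% of all probe sets), and below them for none (0%, beside 0.35%). UGT71C1 ranged over 86.8 to 200.7 in seedlings, with a median of 157.2, and exceeded the floor on a single leaf array, at 35.7. UGT72E2 ranged over 582.8 to 911.7 in seedlings, against a highest leaf signal of 279.4. UGT84A4 ranged over 128.6 to 222.9 in seedlings, against a highest leaf signal of 86.7. They lay above all 6 arrays of 15 d leaves for the same 3 members and UGT71C3 (9.52%, beside 17.1%), and below all 6 for UGT71C4, UGT73C1, UGT76E11, UGT76E12, UGT84A3 and UGT87A2 (14.3%, beside 9.72%). For example, UGT84A3 ranged over 166.1 to 289.5 in seedlings, under the lowest 15 d signal of 917.9 and over the highest 5 d signal of 117.6. UGT76E12 was at the floor on 9 seedling arrays and read 39.4 on the other, that of myb3r3 myb3r5. In 18 members all seedling arrays exceeded all 5 d leaf arrays (42.9%, beside 25.5%), and in UGT74F1 and UGT76C2 they lay below them (4.76%, beside 17.3%).

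The seedling genotypes had 1 array each, so single genotypes have no test and no replicate check. Of the 41 members above the floor in seedlings, 2 passed 2-fold against wild type in myb3r1, 3 in myb3r3, 2 in myb3r4 and 1 in myb3r5. The corresponding shares of all probe sets were 1.37%, 2.28%, 1.62% and 1.26%. In the double mutants, 1 member passed in myb3r1 myb3r4 (1.06% of all probe sets) and 3 in myb3r3 myb3r5 (2.07%). In the triple mutants, 1 passed in myb3r1 myb3r3 myb3r5 (2.61%) and 1 in myb3r3 myb3r4 myb3r5 (1.75%), and in the quadruple mutant none (2.21%). The median log2 ratio of the members lay between -0.08 and 0 in all 9 mutants.

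UGT85A7 passed in 7 of the 9 mutants, and its single wild-type array was the lowest of the 10. It had 122.9 in myb3r1, 88.8 in myb3r3, 102.5 in myb3r4, 83.2 in myb3r5, 84.7 in myb3r1 myb3r4, 83.8 in myb3r3 myb3r5, 50.9 in myb3r1 myb3r3 myb3r5, 93.3 in myb3r3 myb3r4 myb3r5 and 64.7 in the quadruple mutant, against a wild-type signal of 23.8 that is under the floor. All 9 mutant arrays were thus higher, and with the wild type set to the floor the log2 ratio was between 0.62 and 1.89, each a lower bound. The 9 ratios share that 1 wild-type array. Among 5 d leaves, UGT85A7 read 72.9 and 13.4 on the 2 wild-type arrays, so its signal also varied between arrays of 1 group.

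Apart from UGT85A7, members past 2-fold were UGT71C1 in myb3r1 (86.8, against 200.7 in wild type), UGT78D2 and UGT87A2 in myb3r3, UGT73B4 in myb3r4, UGT71B6 (86.1, against a wild-type signal under the floor) and UGT85A3 in myb3r3 myb3r5, and UGT73C7 in myb3r1 myb3r3 myb3r5. UGT78D2, the flavonoid glucosyltransferase, read 515.9 in myb3r3, against 1314 in wild type, and 850.7 to 1514 in the 8 other mutants. UGT78D1, the flavonol rhamnosyltransferase, also had its lowest seedling signal in myb3r3, with 868, against 1464 in wild type. UGT87A2 read 533 in myb3r3, against 1166 in wild type. UGT85A3 read 108.5 in myb3r3 myb3r5, against 46.6 in wild type, and it was 33.6 to 58.4 in the other mutants.

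The seedling mutant with the leaf genotype, myb3r1 myb3r3 myb3r5, had its highest ratios for UGT73C7 (log2 ratio 1.01), UGT76B1 (0.91) and UGT71B5 (0.88), and its lowest for UGT71C2 (-0.72), UGT76C1 (-0.68) and UGT76C2 (-0.62). UGT88A1 read 2049 in this mutant, against 2910 in wild type, and had the same low reading, 2050, in myb3r3 myb3r4 myb3r5. In the other mutants it read 2518 to 3218, with 2549 in myb3r3 myb3r5 and 2625 in the quadruple mutant. In myb3r1 myb3r4 the highest ratios were those of UGT85A7 (1.36), UGT71B5 (0.83) and UGT71C2 (0.83), and the lowest those of UGT87A2 (-0.46), UGT80B1 (-0.41) and UGT73B4 (-0.40). In the quadruple mutant they were those of UGT85A7 (0.97), UGT73B1 (0.59) and UGT85A5 (0.53), and of UGT73B4 (-0.92), UGT84A1 (-0.69) and UGT84A4 (-0.61). The floor sets some of these ratios, which are bounds whose place in the order is not known. UGT71C2 in myb3r1 myb3r3 myb3r5 and UGT84A1 in the quadruple mutant were under the floor in the mutant, and UGT71B5 and UGT85A7 were under it in wild type.

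**Figure D5:**
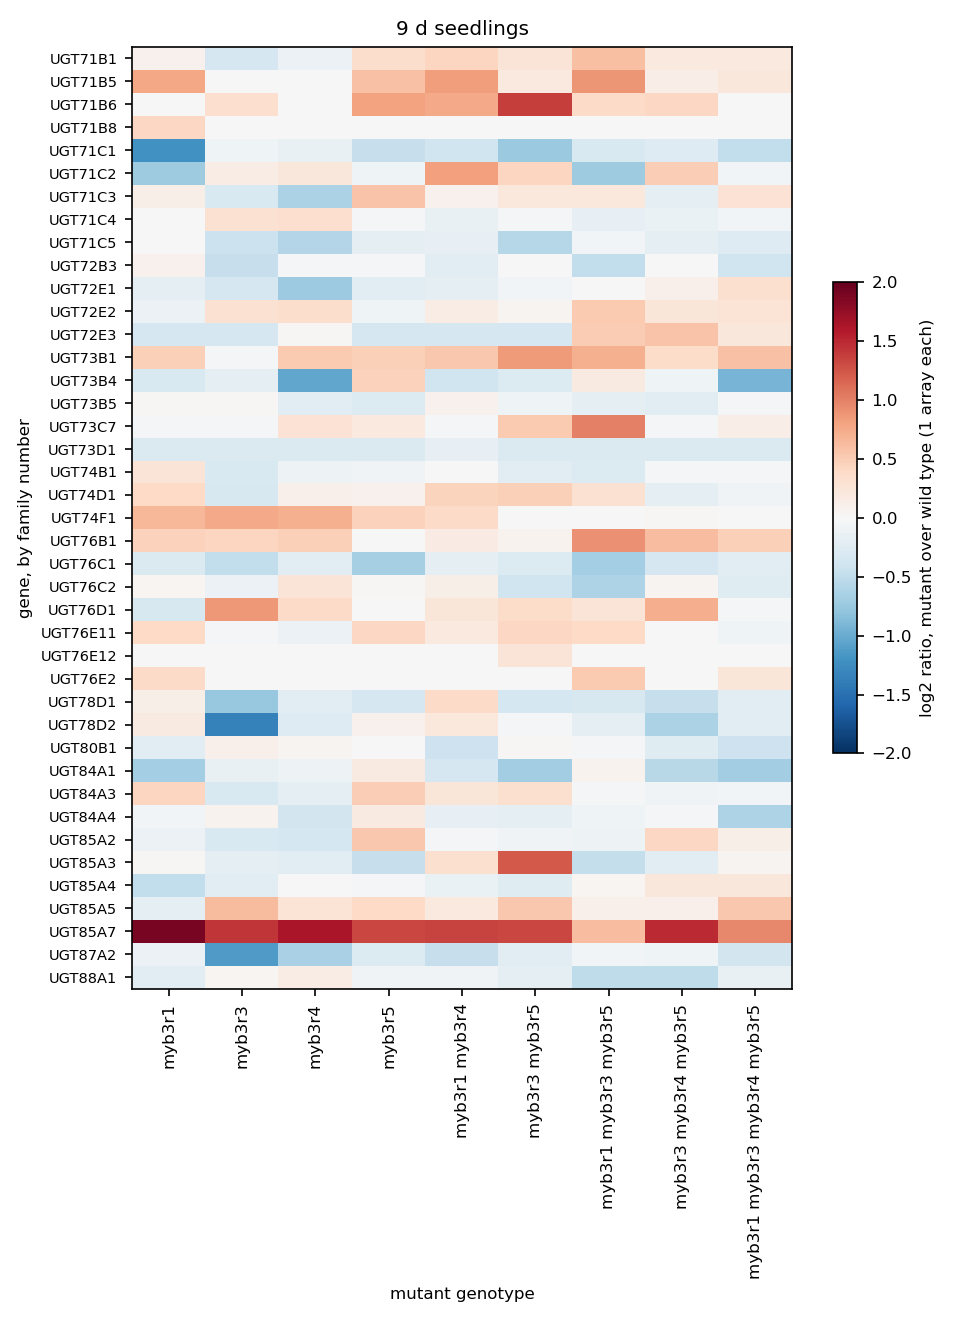
Log2 ratio of each mutant over wild type in 9 d seedlings (1 array each) for the 41 members above the floor in seedlings, red for higher and blue for lower in the mutant. The row of UGT85A7 is red in all 9 mutants, which share the single wild-type array, and UGT78D2 and UGT87A2 are lowest in myb3r3.

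A fit with 1 additive term per mutant allele across the 10 seedling arrays called no member for any of the 4 alleles. It assumes that the alleles do not interact. Apart from the single mutants, each array with myb3r3 also had myb3r5 and the reverse, so only the single-mutant arrays tell these terms apart. In limma, all probe sets gave 0% called for myb3r1, 0.0051% for myb3r3, 0.0153% for myb3r4 and 0% for myb3r5. At an unadjusted p under 0.05 there were 7 members for myb3r1 (17.1%, beside 9.93% of all probe sets), 4 for myb3r3 (9.76%, beside 10.4%), 3 for myb3r4 (7.32%, beside 5.64%) and 4 for myb3r5 (9.76%, beside 7.68%). The lowest adjusted p was that of UGT78D2 for the myb3r3 term (log2 change -0.87, SE 0.19, adjusted p = 0.278). This gene had a myb3r5 term of the opposite sign (0.57, SE 0.19), and both terms lean on the single-mutant arrays. For the other alleles the lowest adjusted p values were 0.397 (myb3r1), 0.845 (myb3r4) and 0.614 (myb3r5).

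Few genes of the pathways that feed these enzymes carry names in the gene table, so their lists can be described only in part. Of 37 listed genes of UDP-sugar supply 1 was named, USP, and it was not called with age in either genotype. Of 48 listed genes that make phenylpropanoid and flavonoid acceptors 4 were named and 3 were tested. Of these 3, 2 rose with age in each genotype, beside 25.9% of all probe sets in the mutant and 24.9% in wild type. HCT, an enzyme of lignin precursor synthesis, rose by 1.78 (adjusted p = 0.00519) in mutant and by 2.05 (adjusted p = 0.00237) in wild-type leaves. CCR2, a cinnamoyl-CoA reductase, rose by at least 1.58 in the mutant (adjusted p = 0.0473), and was not called in wild type (0.16, adjusted p = 0.843). It was at the floor on all 5 d arrays and passed the filter only through a 15 d group, so the filter favours its rise. DFR, of anthocyanin synthesis, rose by 1.50 in wild type (adjusted p = 0.037), and its change in the mutant was -0.68 (adjusted p = 0.301). No gene of the 18 in the glucosinolate list was named.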

How the data were processed

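The authors deposited linear intensity values, made with MAS5 per the submitters' processing notes, without a version. The deposited signals had a trimmed mean (2% at each end) of 500.04 to 500.06 on every array, so depth has no counterpart here and the number of arrays limits the precision. Each array was rescaled to 500, lower signals were raised to the floor of 33.1, and values were put on the log2 scale. Genes were named from the platform's probe-to-gene table. Leaf groups were fitted together in limma 3.58.1 under R 4.3.3 (variance trend, 6 residual degrees of freedom, two-sided tests, Benjamini-Hochberg adjustment over 16558 probe sets), and the seedling fit had 4 additive allele terms over 19626 probe sets with 5 residual degrees of freedom. Both fits were tested on simulated data. The labels do not say whether replicates came from separate cultures, so a p-value reflects just the spread among these arrays, which may be technical. Replicate numbers were taken to pair 15 d and 5 d leaf arrays within an age because same-numbered arrays deviated together (correlations of 0.57 to 0.73 at 15 d and 0.48 at 5 d); the main fit has no block. Genes named in the text are the 8 largest called rises and falls per leaf comparison, or the 3 largest each way where none was called, the 3 largest seedling ratios each way in 3 mutants, and each measured member of the substrate groups; others were named after their values were seen. The members and lists were chosen with earlier results of these data known. Alternatives tried were the floor, the filter, quantile scaling, the variance trend, the arrays in the fit, the replicate block and leaving out arrays. Figures were drawn with matplotlib 3.10.9.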

Additional observations from a re-analysis of the deposited data

How the results depend on the processing

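With age, 14 members were called in the triple mutant with no filter and 14 with a filter on a mean of 4 times the floor, where wild type had 11; the stricter filter tests fewer members. Leaving out each array in turn gave 11 to 23 calls with age in the mutant and 12 to 19 in wild type, 0 to 4 for the mutant against wild type at 15 d, 0 to 2 for the difference between the ages, 0 to 0 at 5 d and 0 to 0 for each seedling allele term. With same-numbered arrays as a replicate block within each age, 2 members were called at 15 d, and the block changed no call at 5 d and none for the difference between the ages. A block across ages gave 23 calls with age in the mutant and 17 in wild type. Without both 15 d arrays numbered 1, which was added after seeing the data, there were 6 calls at 15 d and 3 for the difference. Without the 15 d mutant array numbered 1 and the 5 d mutant array numbered 2, also added afterwards, there were 2 and 1. The 15 d difference of UGT76B1 was -0.82 to 0.85 when arrays were left out in turn, with the lowest value without the 15 d mutant array numbered 1, and -0.95 without both 15 d arrays numbered 1; the cause was not tested. In seedlings, members past 2-fold numbered 5 in myb3r1, 0 in myb3r1 myb3r3 myb3r5, 3 in myb3r3 myb3r4 myb3r5 and 2 in the quadruple mutant with no floor and a pseudocount of 16, and 1 in myb3r4 and 0 in myb3r5 with quantile scaling. Each gene had 1 probe set, so counting every probe set gave the same results. Signals near the floor limit what can be said of low members.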
